A study of Mus musculus with 8 samples.

Results

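The cytosolic ribosomal protein genes were taken as the protein-coding mouse genes whose symbol is Rpl or Rps followed by a digit, together with Rplp0, Rplp1, Rplp2 and Rpsa. The name pattern found 102 genes, of which 10 S6 kinase genes and 6 genes named as pseudogenes were left out. The remaining 86 members, of 30284 genes with a value, comprised 33 proteins of the small subunit, 52 of the large subunit and Rps19bp1, a binding partner of Rps19 that is not itself a ribosomal protein and entered through its name. The members were measured by RNA sequencing of total RNA in macrophages of male C57BL6 mice aged 7 weeks, with no other genotype given. The protocol calls the cells peripheral macrophages and places the stimulation in the peritoneum. The mice received saline for 4 h, the bacterial endotoxin lipopolysaccharide (LPS) for 4 h, the type I interferon IFNb for 4 h, or IFNb for 4 h and then LPS for 4 h (LPS+IFNb). There were 2 libraries per group. The LPS+IFNb libraries were thus taken 8 h after IFNb, and no group received IFNb and then saline. Nothing in the labels ties the 2 libraries to different mice, and the p-values reflect library-to-library spread that may be technical.

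Each ribosome carries a single copy of nearly every ribosomal protein, so cells make these proteins in matched amounts. Their mRNAs are abundant and stable, and most begin with a short run of pyrimidines (C or T in the gene), the 5′ terminal oligopyrimidine tract, through which growth signals such as mTOR set their translation. Interferon is known to restrain protein synthesis through kinases and RNA-degrading enzymes, whereas LPS drives macrophages to make large amounts of new secreted protein.

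The start regions of members discussed later are shown first, because the pyrimidine tract is a sequence feature that the name rule did not use. Each stretch is 30 bases long, from 10 bases before the RefSeq start to 20 bases from it on GRCm38.p6, with the longest unbroken run of C or T in capitals.
Rpl15, chr14:18270967-18270996, minus strand: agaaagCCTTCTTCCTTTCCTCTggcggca
Rps6, chr4:86857348-86857377, minus strand: gaagtcgggCCTCTTTTTCgtgacgcctcc
Rplp2, chr7:141447641-141447670, plus strand: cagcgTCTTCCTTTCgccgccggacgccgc
Rpl35a, chr16:33056472-33056501, plus strand: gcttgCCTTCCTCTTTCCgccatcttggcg
Rpl24, chr16:55966265-55966294, plus strand: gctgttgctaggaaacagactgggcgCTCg
In the first 4 the run spans or adjoins the annotated start, and in Rpl24 it does not exceed 3 bases. Rpl35a has 3 annotated starts, of which the one with the longest run is shown. Of 78 start regions found for 66 of the 86 members, 31 (39.7%) held a run of at least 8 C or T on the gene's strand within 15 bases before and 25 bases from the start, against 15.3% of 32851 start regions of all genes. A start annotated a few bases away from the one used in these cells can miss the run, so the share describes the annotation.

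The 83 members that passed the filter of at least 1 TPM in at least 2 libraries ranged from 1.11 to 1850 TPM in their mean over the 8 libraries, with a median of 555 TPM. TPM is each transcript's share of the library after correction for transcript length, so levels may be compared between genes. Of the 83 members, 75 averaged at least 100 TPM. The 6 most abundant were Rps27, Rps29, Rpl41, Rplp1, Rps14 and Rps15a, with means from 1850 TPM for Rps27 down to 1307 TPM for Rps15a. Rps27 was listed at 1754 and 2635 TPM in the Saline libraries, 1888 and 1902 after LPS, 1482 and 1726 after IFNb, and 1809 and 1600.2 after LPS+IFNb. The Saline pair alone spanned more than all other libraries together, and Rps27 was called in no comparison. The 3 members that did not pass were Rpl10l and Rpl3l, the copies of Rpl10 and Rpl3 known from testis and from muscle, and Rps12, listed at 0 in every library.

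Reads from ribosomal protein genes are hard to place, which bears on every single-gene value below. Rps12 at 0 stood beside its copy Rps12l1 (chr7:56014016-56014414, plus strand), which was listed at 1630.2 and 1734 TPM in Saline, 1275 and 1458 after LPS, 1200.3 and 1157 after IFNb and 1076 and 1056 after LPS+IFNb. The transcripts of both share an identical stretch of 268 bases. Pseudogenes that hold at least 50% of their 31-base words in a member numbered 248, and they carried more TPM than the gene itself for 28 of the 83 members. More than 50% of the 31-base words were shared with other genes in 18 members. Isoforms annotated as not coding, mostly retained introns, carried more TPM than coding isoforms in 17 members, including Rps16 (99.9% non-coding), Rpl24 (99.4%), Rps20 (99.4%), Rpl5 (96.7%) and Rpl12 (90.9%). The non-coding share over all members was 22.3% and 18.9% in Saline, 21.5% and 22.9% after LPS, 21.9% and 20.1% after IFNb, and 21.5% and 20.5% after LPS+IFNb, so the groups overlapped.

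Rps27 and its intronless copy Rps27rt show how little sequence can separate such genes, and Rps27l, a p53-responsive relative, shows a copy that differs more. The coding sequence of Rps27 (chr3:90212522-90213651, minus strand) was identical to that of Rps27rt (chr9:114982366-114982739, minus strand) over 255 bases, whereas Rps27l (chr9:66946086-66949516, plus strand) differed at 61 of 255 positions, an identity of 76.1%. Capitals in Rps27l mark bases that differ from Rps27.
Rps27: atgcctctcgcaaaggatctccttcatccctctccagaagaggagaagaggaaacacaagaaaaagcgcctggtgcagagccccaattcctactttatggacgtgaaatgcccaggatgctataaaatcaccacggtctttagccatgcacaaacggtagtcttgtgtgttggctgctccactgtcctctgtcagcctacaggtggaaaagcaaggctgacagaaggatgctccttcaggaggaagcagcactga
Rps27l: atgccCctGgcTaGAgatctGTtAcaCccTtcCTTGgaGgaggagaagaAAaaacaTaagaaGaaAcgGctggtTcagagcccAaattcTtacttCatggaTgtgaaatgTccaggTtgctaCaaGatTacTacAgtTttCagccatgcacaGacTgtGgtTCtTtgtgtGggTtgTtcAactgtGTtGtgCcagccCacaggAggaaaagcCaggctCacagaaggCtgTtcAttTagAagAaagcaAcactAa
Of the 31-base words of Rps27, 98.7% were shared with other genes, and of Rps27rt 91.3%, so their TPM rest largely on a division of shared reads. Rps27rt was listed at 1174 and 919 TPM in Saline and at 836 and 715 after LPS+IFNb. In Saline the library with less Rps27 had more Rps27rt. Rps27l was listed at 281 and 201 TPM in Saline, 260 and 232 after LPS, 187 and 184 after IFNb and 133 and 176 after LPS+IFNb. The LPS+IFNb libraries lay below both LPS libraries, a log2 difference of -0.68 (SE 0.19; adjusted p = 0.0345).

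The members' share of library TPM was highest in Saline and lowest after LPS+IFNb. Together the 86 genes took 5.97% and 5.83% of the TPM in the Saline libraries, 5.01% and 5.42% after LPS, 4.40% and 4.38% after IFNb, and 4.23% and 3.82% after LPS+IFNb. The groups did not overlap and stood in that order, with means of 5.90% ± 0.104, 5.22% ± 0.290, 4.39% ± 0.0136 and 4.02% ± 0.289 (SD, n = 2). An exact permutation test of 2 against 2 libraries cannot give a p below 0.333, so the shares are given without a test. Their pseudogenes matched by sequence followed the same order, from 3.71% and 4.05% in Saline to 2.60% and 2.41% after LPS+IFNb. The nuclear genes for mitochondrial ribosomal proteins, which build the separate ribosome of mitochondria, did not: they took 0.328% and 0.318% in Saline, 0.247% and 0.252% after LPS, 0.264% and 0.275% after IFNb and 0.196% and 0.199% after LPS+IFNb, with IFNb above LPS. The RNAs encoded in the mitochondrial genome fell in the same order as the members: they took 3.93% and 3.57% in Saline, 3.39% and 3.11% after LPS, 2.62% and 2.84% after IFNb, and 2.56% and 2.52% after LPS+IFNb, again without overlap. Their part in the result was not tested. The balance of the subunits moved little, since the ratio of large-subunit to small-subunit TPM lay between 0.943 and 1.01 in the 8 libraries. In bulk RNA, fewer cells of a type and less RNA per cell cannot be told apart.

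**Figure D1:**
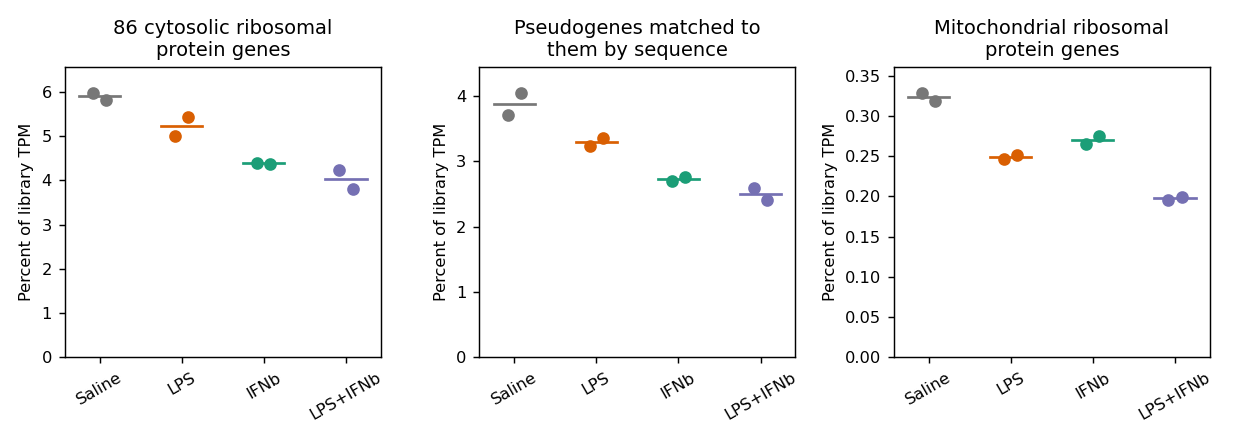
Percent of each library's TPM (y axis, from 0) in the 86 cytosolic ribosomal protein genes, in the pseudogenes matched to them by sequence and in the mitochondrial ribosomal protein genes, by treatment group (x axis). Points are libraries and lines are means of 2. The cytosolic genes step down from Saline (5.97% and 5.83%) through LPS and IFNb to LPS+IFNb (4.23% and 3.82%), while the mitochondrial ribosomal protein genes are lower after LPS than after IFNb.

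A TPM is a share of the library, so a fall in TPM can follow from the rise of other genes. Each comparison is therefore given on the TPM as deposited and after median-ratio scaling, which divides each library so that its typical gene sits at the same level. This scaling moved the median log2 change of all 13009 tested genes from -0.38 to 0.01 in LPS against Saline, from -0.37 to -0.03 after IFNb and from -0.62 to 0.01 after LPS+IFNb, each against Saline. Compared with LPS, LPS+IFNb moved from -0.22 to -0.01, and compared with IFNb from -0.30 to -0.02, while LPS against IFNb moved from -0.06 to 0.00. Changes are differences of log2(TPM + 1) tested with limma, with Benjamini-Hochberg adjustment over all 13009 genes and a call at an adjusted p under 0.05.

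Most ribosomal protein genes were lower after IFNb on the deposited scale. Of the 83 tested members, 57 fell and 0 rose after IFNb against Saline, beside 38.6% of all genes called lower and 13% called higher. The fallers were 22 of 32 small-subunit and 34 of 50 large-subunit genes, and Rps19bp1. The median change of the members was -0.45, with a middle range from the 25th to the 75th percentile of -0.53 to -0.33, against -0.37 for all genes. At an unadjusted p under 0.05 limma gave 64 members lower and 0 higher. After median-ratio scaling 3 members stayed lower (Rpl3, Rpl4 and Rpl12) and 1 was higher (Rpl35a), with a median of -0.06 beside -0.03 for all genes, 14.9% of which were called lower and 18.7% higher. The count was 36 without IFNb replicate 1 and 35 without IFNb replicate 2.

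Rpl3 and Rpl4 were abundant members called lower after IFNb on both scales. Rpl3, which lies next to the peptidyl transferase centre, was listed at 589 and 539 TPM in Saline, 402 and 393 after LPS, 321 and 336 after IFNb, and 265 and 265 after LPS+IFNb. The 4 groups did not overlap. The difference between IFNb and Saline was -0.78 (SE 0.07; adjusted p = 0.000383) and -0.38 after median-ratio scaling (adjusted p = 0.0332). Rpl4, whose long loop lines the peptide exit tunnel, was listed at 634 and 608 TPM in Saline, 541 and 592 after LPS, 361 and 363 after IFNb, and 347 and 315 after LPS+IFNb. Both groups given IFNb lay far below both groups without it. Its difference between IFNb and Saline was -0.78 (adjusted p = 0.000598) and -0.39 after median-ratio scaling (adjusted p = 0.0342).

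The largest falls by size after IFNb belonged to Rpl12, Rpl10 and Rpl5. Rpl12, which sits at the base of the ribosomal stalk, was listed at 17.7 and 35.9 TPM in Saline, 17.8 and 21.5 after LPS, 9.93 and 4.05 after IFNb and 4.84 and 7.15 after LPS+IFNb. The libraries given IFNb lay below the others, at levels where most of the TPM was in non-coding isoforms. The change of -1.82 (SE 0.45; adjusted p = 0.0147) became -0.54 when 2 abundant pseudogenes and other sequence-matched copies were added, and -0.42 (adjusted p = 0.292) on coding isoforms only. Without Saline replicate 2 or IFNb replicate 2 the call was lost, with adjusted p = 0.0698 and 0.0681. Rpl10, a late-joining large-subunit protein that reaches toward the transfer RNA sites, was listed at 525 and 666 TPM in Saline, 562 and 402 after LPS, 318 and 317 after IFNb and 421 and 382 after LPS+IFNb. The IFNb pair was the lowest, and LPS+IFNb overlapped no Saline library. The change of Rpl10 after IFNb was -0.90 (SE 0.18; adjusted p = 0.00681), and -0.50 after median-ratio scaling, where the call was lost (adjusted p = 0.0654). Rpl5, whose values are given below, changed by -0.81 after IFNb (SE 0.20; adjusted p = 0.0151). Its call was lost with median-ratio scaling (-0.43, adjusted p = 0.132) and upper-quartile scaling (-0.63, adjusted p = 0.0674). It was also lost without Saline replicate 2 (-0.58), IFNb replicate 1 (-0.83) or IFNb replicate 2 (-0.78).

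After LPS alone few members were called. Against Saline, 10 of 83 fell, beside 41.3% of all genes, and 1 rose, beside 12.8% of all genes. The median change was -0.16 against -0.38 for all genes, so most members fell less than the typical gene. The fallers were Rpl3, Rpl30, Rpl35a, Rpl36a, Rpl39, Rpl41, Rplp2, Rps3, Rps21 and Rps27a, with changes from -0.50 for Rpl3 to -0.24 for Rplp2. After median-ratio scaling none of the 83 was lower by limma, also at an unadjusted p under 0.05, and 8 were higher (34 at an unadjusted p under 0.05), beside 17.3% and 20.9% of all genes. The median was then 0.30, and 81 of 83 members were above 0. The direction of the LPS change therefore depended on the scale. The 10 lower calls became 6 without Saline replicate 2, 4 without LPS replicate 1, 3 without LPS replicate 2, and 5 without either of the IFNb libraries, which enter through the shared estimate of spread.

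Rpl30, a protein of the large subunit, was listed at 761 and 882 TPM in Saline, 593 and 615 after LPS, 490 and 580.5 after IFNb and 476 and 460.1 after LPS+IFNb. All treated libraries lay below both Saline libraries. Its LPS change was -0.44 (adjusted p = 0.0154), and 0.02 after median-ratio scaling. With pseudogenes added the call was also lost, at -0.03 when matched by name (adjusted p = 0.742) and -0.11 by sequence (adjusted p = 0.359). Rpl39, a small protein of the exit tunnel, was listed at 270.4 and 288 TPM in Saline, 220.5 and 204 after LPS, 203 and 204 after IFNb, and 192 and 170.4 after LPS+IFNb. It too was lower in every treated library, by -0.39 after LPS (adjusted p = 0.0100), and was at 0.07 after median-ratio scaling.

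Rpl24 was the only member called higher after LPS on the deposited scale. Rpl24, which reaches across to the small subunit as a bridge, was listed at 558 and 424 TPM in Saline, 673 and 859 after LPS, 412 and 362 after IFNb and 498 and 472 after LPS+IFNb. Both LPS libraries lay above all others. The LPS change was 0.64 (SE 0.17; adjusted p = 0.0177), and 1.11 after median-ratio scaling (adjusted p = 0.00447). The call on the deposited scale was lost without Saline replicate 2 (0.45, adjusted p = 0.0758) and without LPS replicate 2 (0.47, adjusted p = 0.0928). The change was carried by a retained-intron isoform, listed at 452 and 262 TPM in Saline and at 556 and 727 after LPS. The coding isoform was listed at 2.68 and 0 TPM in Saline and at 3.92 and 6.78 after LPS, so the coding values are a few TPM at most. Adding its sequence-matched pseudogenes left a change of 0.49 (adjusted p = 0.0101).

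LPS against IFNb, both for 4 h, was a comparison in which the members' median kept its sign under each library scaling tried. On the deposited scale 29 of 83 members were higher after LPS and 0 were lower, beside 16.6% of all genes higher and 22.1% lower. Only Rpl35a was lower at an unadjusted p under 0.05. The median difference of the members was 0.26 against -0.06 for all genes. After median-ratio scaling 31 members were higher, including all 29, and 0 lower (0 also at an unadjusted p under 0.05 by limma), beside 18.6% and 20.1% of all genes, with a median of 0.33 against 0.00. The count was 42 with upper-quartile scaling and 34 when only nuclear protein-coding genes were kept and rescaled. The direction of the median also held without each library in turn, between 0.21 and 0.34, but the count of calls did not: it was 16 without LPS replicate 1, 8 without LPS replicate 2, 10 without IFNb replicate 1 and 7 without IFNb replicate 2. Without a filter on low values it was 18. A median of the same sign on the deposited and median-ratio scales was not particular to this comparison. It was -0.45 and -0.06 in IFNb against Saline, and -0.42 and -0.15 in LPS+IFNb against LPS.

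The 29 members higher after LPS than after IFNb comprised 18 of 50 large-subunit and 10 of 32 small-subunit genes, and Rps19bp1. Rpl4 (values above) was 0.64 higher (adjusted p = 0.00123). Rps2, which lies at the mRNA entry channel, was listed at 863 and 784 TPM in Saline, 719 and 743 after LPS, 528 and 518 after IFNb, and 463 and 439 after LPS+IFNb. The 4 groups stood in that order with no overlap, and LPS exceeded IFNb by 0.48 (adjusted p = 0.00315). Rps19, mutated in Diamond-Blackfan anaemia, was listed at 1339 and 1327 TPM in Saline, 1135 and 1196 after LPS, 893 and 891 after IFNb, and 895 and 840.0 after LPS+IFNb. LPS exceeded IFNb by 0.38 (adjusted p = 0.00548), and the 2 groups given IFNb overlapped. Of the stalk proteins, which recruit elongation factors, Rplp0 was 0.42 higher (adjusted p = 0.00776) and Rplp1 0.24 higher (adjusted p = 0.0481), while Rplp2 stood at 0.15 (adjusted p = 0.173). The laminin receptor precursor Rpsa was 0.41 higher (adjusted p = 0.0156), and Rps27a, made as a fusion with ubiquitin, 0.26 higher (adjusted p = 0.0342). Rps6, the target of the S6 kinases, was listed at 274 and 247 TPM in Saline, 248 and 221 after LPS, 191 and 197 after IFNb, and 184 and 154 after LPS+IFNb. Its LPS libraries lay above its IFNb libraries, with a difference of 0.27 that did not pass (adjusted p = 0.11).

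**Figure D2:**
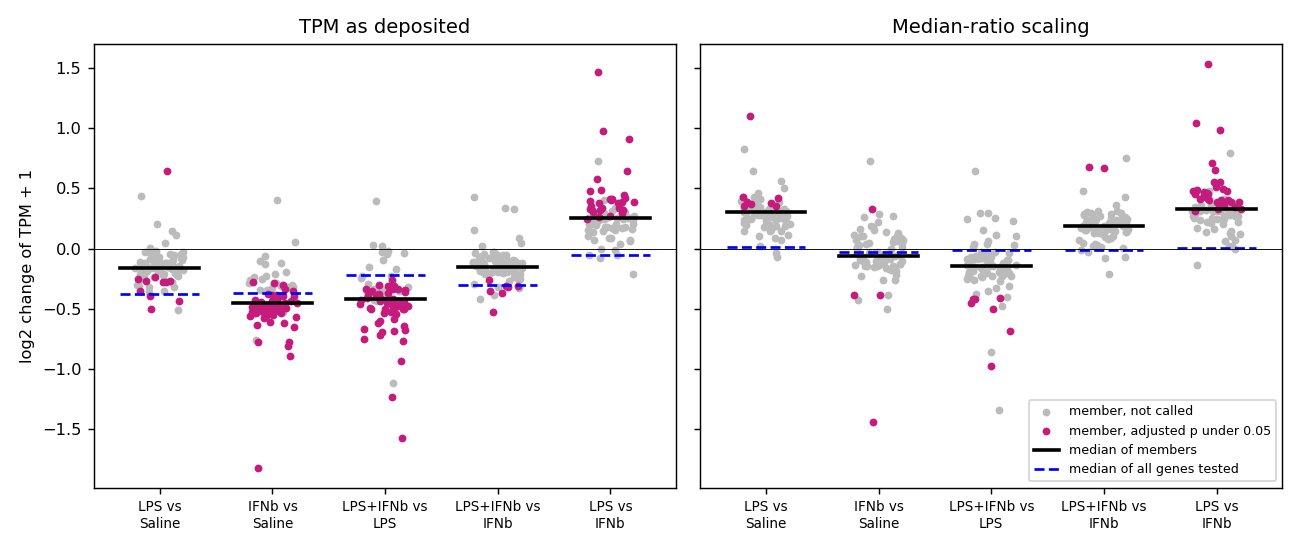
Change of each of the 83 tested members in 5 comparisons (x axis), as the difference of log2(TPM + 1) (y axis), on the TPM as deposited and after median-ratio scaling. Each point is a gene, coloured where the adjusted p was under 0.05; the solid line is the median of the members and the dashed line that of all 13009 genes. The members' median in LPS against IFNb is above 0 on both scales (0.26 and 0.33), whereas in LPS against Saline it is -0.16 on one and 0.30 on the other.

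Most members were also lower after LPS+IFNb than after LPS alone. In LPS+IFNb against LPS, 53 of 83 fell and 0 rose, beside 24.1% and 10.8% of all genes, with a median of -0.42 against -0.22 for all genes. At an unadjusted p under 0.05 limma gave 64 lower and 0 higher. After median-ratio scaling 7 were lower (Rpl4, Rpl5, Rpl7l1, Rpl14, Rpl36al, Rps2 and Rps19bp1) and 0 higher (2 at an unadjusted p under 0.05 by limma), beside 10.5% and 15.3% of all genes, with a median of -0.15 against -0.01. The deposited count was 21 without LPS replicate 2 and 21 without LPS+IFNb replicate 2. This comparison and IFNb against Saline share no library, but the spread of each gene was estimated over all 8 libraries. Calls are therefore not independent between these 2 comparisons. Of the 57 and 53 members lower in them, 49 were lower in both, which is 86% of the first list and 92.5% of the second. Among all genes 50.6% and 81.2% of the corresponding lists were shared. After median-ratio scaling the members' lists of 3 and 7 shared 1 gene, Rpl4. Across the 83 members, changes in the 2 comparisons had a Pearson correlation of 0.75 (Spearman 0.61) and the same sign in 80 members, nearly all of which were below 0 in each. Relative to the family median the Pearson correlation was again 0.75, with the same sign in 62 members. For LPS against Saline and LPS+IFNb against IFNb, the Pearson correlation was 0.33 (Spearman 0.21), with the same sign in 75 members. Relative to the family median that pair stood at 0.31, with the same sign in 51 members. All of this is a description across genes, which share libraries and are not independent replicates.

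Rpl5, Rpl11 and Rps19bp1 were among the genes concerned. Rpl5 binds the 5S rRNA together with Rpl11 and, as background, that complex also restrains Mdm2 when ribosome assembly fails. Rpl5 was listed at 32.1 and 44.2 TPM in Saline, 42.1 and 39.3 after LPS, 21.4 and 20.8 after IFNb and 19.9 and 14.1 after LPS+IFNb. The groups given IFNb lay below the others, and the change in LPS+IFNb against LPS was -1.23 (SE 0.20; adjusted p = 0.00489). Adding its abundant pseudogene and other matched copies reduced this to -0.57 (adjusted p = 0.0026). Rpl11 was listed at 614 and 520 TPM in Saline, 469 and 516 after LPS, 471 and 446 after IFNb, and 367 and 368 after LPS+IFNb. The LPS+IFNb pair was the lowest, at -0.42 against LPS (adjusted p = 0.0201). Rps19bp1, which also activates the deacetylase Sirt1, shared no 31-base word with another gene. It was listed at 25.9 and 22.7 TPM in Saline, 19.7 and 21.4 after LPS, 15.47 and 14.95 after IFNb and 9.82 and 10.7 after LPS+IFNb. The groups did not overlap, and the change in LPS+IFNb against LPS was -0.93 (SE 0.11; adjusted p = 0.00173).

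Few members differed between LPS+IFNb and IFNb alone. In LPS+IFNb against IFNb, 7 of 83 fell and 0 rose, beside 30.5% and 8.76% of all genes, with a median of -0.16 against -0.30. The 7 were Rpl3, Rpl10a, Rpl11, Rpl13, Rpl36al, Rps19bp1 and Rps27a, led by Rps19bp1 at -0.53 (adjusted p = 0.0129). At an unadjusted p under 0.05 limma gave 14 lower and 0 higher. After median-ratio scaling 0 were lower (0 also at an unadjusted p under 0.05 by limma) and 2 higher (Rpl10 and Rpl24), beside 10.9% and 13.7% of all genes, and the median was 0.19. The 7 became 4 without LPS replicate 1, 4 without LPS replicate 2, 0 without either of the IFNb libraries, 3 without LPS+IFNb replicate 1 and 1 without LPS+IFNb replicate 2. Rpl13, a large-subunit protein, was listed at 190.2 and 185 TPM in Saline, 171 and 153 after LPS, 165 and 159 after IFNb, and 135 and 118 after LPS+IFNb. Its LPS and IFNb libraries overlapped and LPS+IFNb lay below all of them, at -0.36 against IFNb (adjusted p = 0.0294).

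With both treatments against Saline, 68 of 83 members fell and 0 rose, beside 54.1% and 15.2% of all genes, with the same median of -0.62 in members and all genes. At an unadjusted p under 0.05 limma gave 72 lower and 0 higher. After median-ratio scaling 3 were lower (Rpl3, Rpl12 and Rps19bp1) and 7 higher, beside 25.2% and 27.4%. The interaction, the difference between the LPS change with and without IFNb, passed for 0 of 83 members, beside 4.45% of all genes lower and 3.51% higher. By limma its lowest adjusted p was 0.187, for Rpl10, the only member at an unadjusted p under 0.05. The median interaction was 0.01, and 2 members passed without Saline replicate 1. After median-ratio scaling it again passed for 0 members, beside 4.84% and 2.08% of all genes, and 0 were at an unadjusted p under 0.05 by limma.

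Whether the members moved together was tested by scaling each library to the median ribosomal protein gene, which leaves only departures from the family. In LPS against Saline, 1 of 83 members departed (38.5% of all genes did so), and in IFNb against Saline 3 (28.2%). For LPS+IFNb, 12 departed relative to Saline (49.6%), 7 relative to LPS (20.7%) and 1 relative to IFNb (23.2%). For LPS relative to IFNb, 5 departed (38.2%). In the interaction limma called 0 (4.26%), and 0 at an unadjusted p under 0.05. Scaling to the members themselves favours a low count among them. The counts depended on single libraries. The 7 became 0 without either LPS library and 1 without any one IFNb or LPS+IFNb library. The 5 became 3 without IFNb replicate 1 and 0 without IFNb replicate 2. The 12 became 4 without LPS+IFNb replicate 1 and 5 without LPS+IFNb replicate 2. Without Saline replicate 1, 5 members departed after LPS and 5 after IFNb, and after IFNb 1 and 0 departed without IFNb replicates 1 and 2.

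The departure of Rpl24 after LPS held in every alternative run. Relative to the family median it rose by 0.82 after LPS (adjusted p = 0.00399). Under 14 alternatives it stayed past the threshold, between 0.66 and 1.70, where the highest value came from coding isoforms only. In LPS+IFNb against Saline it was 0.59 above the family (adjusted p = 0.0109), a call lost without Saline replicate 2 and without LPS+IFNb replicate 2.

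Some members departed from the family after IFNb in both directions. Rpl35a was listed at 763 and 762 TPM in Saline, 613 and 654 after LPS, 718 and 745 after IFNb, and 661 and 593 after LPS+IFNb. Its IFNb libraries stayed close to Saline while the family fell, a departure of 0.38 (adjusted p = 0.0152) that was 0.16 (adjusted p = 0.19) with sequence-matched pseudogenes added. Rps20, of the small-subunit head, was listed at 825 and 737 TPM in Saline, 681 and 724 after LPS, 722 and 733 after IFNb, and 745 and 637 after LPS+IFNb. LPS and IFNb libraries lay just below the Saline pair and LPS+IFNb overlapped it, and the departure after IFNb was 0.34 (adjusted p = 0.0257), lost on coding isoforms only (0.02, adjusted p = 0.938). Rpl15, a core protein of the large subunit, stood at 226 and 174 TPM in Saline, 170.0 and 194 after LPS, 186 and 179.8 after IFNb, and 196 and 175 after LPS+IFNb. Its groups overlapped throughout, which left it 0.50 above the family in LPS+IFNb against Saline (adjusted p = 0.0127). This call was lost without Saline replicate 2 (0.34, adjusted p = 0.0597) and without LPS+IFNb replicate 1 (0.49, adjusted p = 0.052). Rpl4 departed downward after IFNb by -0.33 (adjusted p = 0.0234), and by -0.36 in LPS+IFNb against LPS (adjusted p = 0.0235). The second call was lost without any one of the LPS, IFNb or LPS+IFNb libraries, with departures between -0.37 and -0.35 and adjusted p from 0.0599 to 0.0865. Each of the calls of Rpl35a, Rps20 and Rpl4 after IFNb was lost on leaving out either IFNb library, with departures then between 0.34 and 0.43, 0.31 and 0.37, and -0.36 and -0.31. Those of Rpl35a and Rpl4 were also lost without Saline replicate 1 (0.35 and -0.34), and those of Rps20 and Rpl4 without Saline replicate 2 (0.29 and -0.33).

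**Figure D3:**
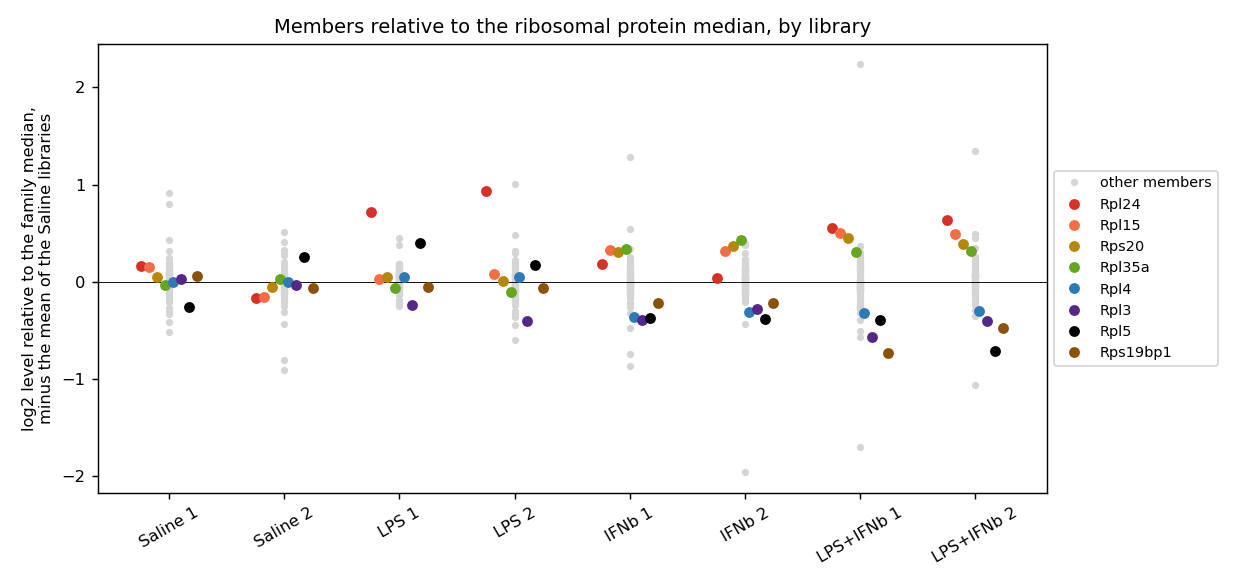
Level of each tested member relative to the ribosomal protein median of its library, as log2 minus the mean of the Saline libraries (y axis), in the 8 libraries (x axis). Coloured points are the members named in the legend, shifted sideways for clarity, and grey points the others. Rpl24 lies highest among the coloured genes in both LPS libraries, and Rpl4 lies below the family in the 4 libraries given IFNb.

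Several members are near copies of another or are known for roles outside the ribosome. Rpl7l1, a nucleolar relative of Rpl7, was listed at 34.2 and 33.7 TPM in Saline, 32.6 and 34.4 after LPS, 23.2 and 24.1 after IFNb, and 20.43 and 20.998 after LPS+IFNb. It was split cleanly by IFNb, with a change of -0.50 after IFNb (adjusted p = 0.00373), while Rpl7, at 1583 and 1359 TPM in Saline and 1172 and 1136 after IFNb, changed by -0.35 (adjusted p = 0.0506). The difference between the 2 genes was not tested. Rpl36al, the intronless copy of Rpl36a, was listed at 176 and 165 TPM in Saline, 149 and 157 after LPS, 118 and 117 after IFNb, and 99.2 and 90.1 after LPS+IFNb, with no overlap between groups. Its IFNb change was -0.53 (adjusted p = 0.00274), beside -0.44 for Rpl36a (adjusted p = 0.0207). Rpl22l1, a developmental counterpart of Rpl22, changed by -0.49 after IFNb (adjusted p = 0.023), beside -0.52 for Rpl22 (adjusted p = 0.0103). Rpl39l, known from testis, stood at 0.139 to 2.63 TPM and showed no change past the threshold. Rpl13a, known from the interferon-gamma-activated inhibitor of translation, was listed at 50.2 and 14.9 TPM in Saline, 32.1 and 31.6 after LPS, 17.0 and 20.9 after IFNb, and 13.3 and 15.1 after LPS+IFNb. Its Saline libraries held both the highest value and one of the lowest, and no comparison passed. Rps3, at the mRNA entry, was listed at 534 and 547 TPM in Saline, 435 and 471 after LPS, 390 and 390 after IFNb, and 371 and 333 after LPS+IFNb. The groups stood in that order with no overlap, and the change was -0.26 after LPS (adjusted p = 0.0366) and -0.47 after IFNb (adjusted p = 0.00408).

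The ribosome also holds proteins whose genes the name rule leaves out. Rack1, the scaffold at the small-subunit head, was listed at 1054 and 963 TPM in Saline, 843 and 977 after LPS, 708 and 712 after IFNb, and 635 and 582 after LPS+IFNb. It changed by -0.50 after IFNb (adjusted p = 0.00625), and stood at -0.11 after median-ratio scaling (adjusted p = 0.55). Fau, the fusion that yields a small-subunit protein, stood at -0.25 (adjusted p = 0.22).

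Lists of other translation genes also had more members higher than lower after LPS than after IFNb, except the mitochondrial ribosomal proteins. Ribosome biogenesis genes make and assemble ribosomes in the nucleolus. Of 48 such genes, 35 were higher and 1 lower after LPS than after IFNb (median 0.76), beside 16.6% and 22.1% of all genes. After median-ratio scaling 38 were higher and 1 lower (median 0.83), beside 18.6% and 20.1% of all genes. After IFNb against Saline 43 fell and 2 rose (median -0.80), beside 38.6% and 13% of all genes. After scaling 25 fell and 4 rose (median -0.43), beside 14.9% and 18.7%. After LPS 8 fell and 11 rose (median 0.00), beside 41.3% and 12.8% of all genes. After scaling 0 fell and 24 rose (median 0.44), beside 17.3% and 20.9%. Nop58, a core protein of snoRNA particles, was listed at 71.2 and 60.6 TPM in Saline, 135 and 125 after LPS, 24.9 and 26.1 after IFNb, and 35.8 and 26.5 after LPS+IFNb. LPS stood above Saline and both IFNb groups below it, and LPS exceeded IFNb by 2.30 (adjusted p = 7.45e-05). Rrs1, needed for large-subunit assembly, was listed at 13.8 and 14.9 TPM in Saline, 55.8 and 52.1 after LPS, 6.94 and 7.62 after IFNb, and 15.1 and 16.8 after LPS+IFNb, a difference of 2.73 between LPS and IFNb (adjusted p = 9.64e-06).

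Elongation factors feed transfer RNAs to the ribosome and move it along the mRNA. Of 7 genes on this list, 6 were higher after LPS than after IFNb and 0 lower (median 0.41). For this and the following lists in that comparison, 16.6% of all genes were higher and 22.1% lower. The list includes Eef1e1, which had its largest difference (1.67) and need not act in elongation itself. Eef2, the translocase, was listed at 529 and 589 TPM in Saline, 429.9 and 488 after LPS, 307 and 281 after IFNb, and 286 and 262 after LPS+IFNb. Its LPS libraries lay between Saline and IFNb with no overlap. Of 35 initiation factors 20 were higher and 1 lower (median 0.42), and of 22 other mRNAs known to carry the pyrimidine tract 15 were higher and 0 lower (median 0.41); this list shares 5 genes with the elongation factors and also holds Fau and Rack1. Of the 78 mitochondrial ribosomal protein genes 6 were higher and 16 lower (median -0.06, and 0.01 after scaling), close to the median of all genes. After LPS against Saline 42 of them fell and 2 rose (median -0.41), beside 41.3% and 12.8% of all genes, and after scaling 9 fell and 9 rose (median 0.02). The difference in median between the lists was not tested.

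**Figure D4:**
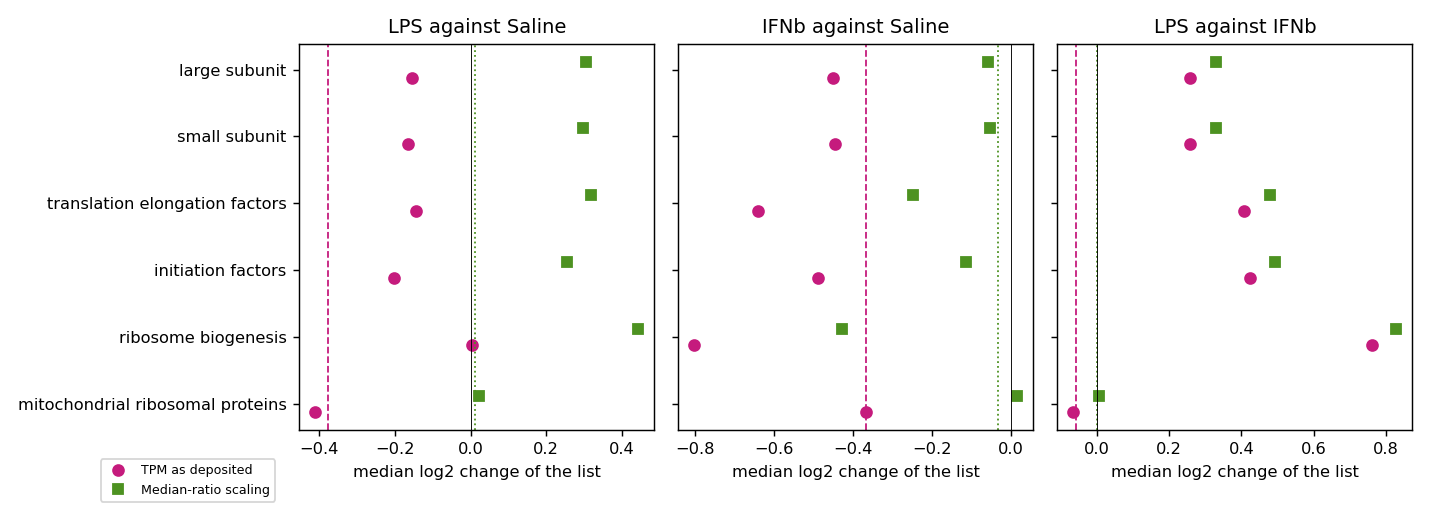
Median log2 change of 6 gene lists (y axis) in 3 comparisons, in log2 units (x axis), on the TPM as deposited (circles) and after median-ratio scaling (squares). Dashed and dotted vertical lines give the median of all genes on the same 2 scales. Ribosome biogenesis genes lie farthest from the line in LPS against IFNb (0.76 and 0.83), the 2 subunits lie together (0.26 and 0.33), and the mitochondrial ribosomal proteins lie at the line.

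Some genes known to act on ribosomal protein synthesis were measured too. Of 19 tested S6 kinases and regulators of pyrimidine-tract mRNAs, 5 rose and 6 fell after LPS, and 1 rose and 9 fell after IFNb. Of all genes, 12.8% rose and 41.3% fell after LPS, and 13% rose and 38.6% fell after IFNb. After median-ratio scaling 7 rose and 3 fell after LPS, beside 20.9% and 17.3% of all genes. After IFNb 2 then rose and 7 fell, beside 18.7% and 14.9%. Larp1, which binds the tract, was listed at 17.6 and 34.9 TPM in Saline, 83.0 and 89.5 after LPS, 99.1 and 89.6 after IFNb, and 100.3 and 113 after LPS+IFNb. All treated libraries lay above Saline, by 1.76 after LPS (adjusted p = 0.00254) and 1.88 after IFNb (adjusted p = 0.00218). Myc, a transcription factor that drives ribosome production, was listed at 2.60 and 4.86 TPM in Saline, 16.2 and 18.7 after LPS, 3.74 and 4.82 after IFNb, and 13.6 and 11.9 after LPS+IFNb. It was high in the 4 libraries given LPS and stayed at the Saline level after IFNb alone, with LPS above IFNb by 1.81 (adjusted p = 0.00152). Of 13 translation shut-off kinases and interferon effectors, 9 rose after LPS and 9 after IFNb, beside 12.8% and 13% of all genes. Eif2ak2, the kinase PKR, was listed at 17.0 and 17.1 TPM in Saline, 118 and 112 after LPS, 223 and 221 after IFNb, and 186 and 191 after LPS+IFNb. It rose in all treated groups and was highest after IFNb, with LPS 0.94 below IFNb (change -0.94; adjusted p = 1.2e-04).

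Markers of the labelled cell type and of others were measured in the same libraries. The 8 macrophage markers summed to 21868 and 19156 TPM in Saline, 17057 and 16312 after LPS, 16185 and 16476 after IFNb, and 14365 and 14188 after LPS+IFNb. The sum was highest in Saline and lowest after LPS+IFNb, while LPS and IFNb overlapped. Lyz2 alone held 17557 and 15340 TPM in Saline, so the order of the sum is largely that of 1 gene. Single markers went both ways: after IFNb 3 of the 8 were called higher and 2 lower, beside 13% and 38.6% of all genes. Fcgr1, for example, was listed at 62.2 and 54.3 TPM in Saline and at 691 and 739 after IFNb. Lyz2, Cd68, Adgre1 and Csf1r were present in every library. The 7 markers of large peritoneal macrophages summed to 41.6 to 75.5 TPM. Among them Gata6 stood at 0.862 to 2.11 TPM and Timd4 at 0.427 to 3.38 TPM. Others were higher, with Vsig4 at 8.83 to 27.6 TPM, Prg4 at 10.03 to 23.8 TPM and Icam2 at 7.905 to 19.6 TPM. After IFNb 3 of the 7 were called higher and 1 lower, beside 13% and 38.6% of all genes. The 11 B cell markers summed to 257 and 261 TPM in Saline, 144 and 147 after LPS, 169 and 165 after IFNb, and 141 and 147 after LPS+IFNb. Of the 11, 5 were called lower after LPS and 4 after IFNb, near the 41.3% and 38.6% of all genes. The B cell sums were lower after LPS than after IFNb, whereas the members' share was higher. The 8 mesothelial and stromal markers summed to 31.7 to 102 TPM and were higher in Saline replicate 2, LPS replicate 2, IFNb replicate 1 and LPS+IFNb replicate 1 than in the other library of their group. T and NK cell, eosinophil and dendritic cell markers summed to 7.30 to 36.3 TPM, and mast cell and neutrophil markers to between 42.4 and 220.3 TPM; no list had a marker at 0 in all libraries. The part of these markers in the results was not tested.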

How the data were processed

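Per the submitters' processing notes, the authors quantified transcripts with kallisto and named the mm10 build; its version and options: not given in the sources used here. The deposited TPM values cover 88198 Ensembl transcripts per library. TPM keeps no read number, so depth and counting error are unknown; the number of transcripts above 0 was 45973 to 52715. Transcript IDs found in GENCODE M21 (GRCm38) numbered 86119 (the rest held 1.01% to 1.95% of TPM), and their values were summed per gene. Genes reaching 1 TPM in 2 or more libraries entered the test on log2(TPM + 1) in limma 3.58.1 (R 4.3.3), with a mean-variance trend, 1 mean per group over all 8 libraries, 4 residual and 2.54 prior degrees of freedom, two-sided, with Benjamini-Hochberg adjustment. The pseudocount understates changes of low genes. On simulated data for LPS against Saline (13009 genes) the fit recovered 50 of 100 genes changed by a log2 of 1 and 91 of 100 changed by 2. Start sequences are from RefSeq, and coding sequences from the reference transcripts.

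The members and lists were chosen with earlier results of these data known. Named were the 6 most abundant members, the 3 largest called changes each way per comparison, listed copies beside their closest member, members with roles of their own, and list examples; not every gene so named is described. Alternatives were other scalings, a pseudocount of 0.1, no filter, coding isoforms only, pseudogenes added by name, a replicate block and leaving out each library. Adding pseudogenes by sequence (at least 50% of 31-base words) was chosen after seeing the data.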

Additional observations from a re-analysis of the deposited data

How the results depend on the processing

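Counts of members called depended on the scale and, in several comparisons, on single libraries. With median-ratio scaling the lower and higher counts were 0 and 8 in LPS against Saline, 3 and 1 in IFNb against Saline, 3 and 7 in LPS+IFNb against Saline, 7 lower in LPS+IFNb against LPS, and 0 and 2 in LPS+IFNb against IFNb. With upper-quartile scaling they were 0 and 2, 17 lower, 14 and 1, 20 lower, and 0 lower. Rescaled protein-coding genes gave 22 lower in LPS against Saline. Without a filter the counts were 5 lower in LPS against Saline, 32 lower in LPS+IFNb against LPS, 18 higher in LPS against IFNb and 0 departures from the family in LPS+IFNb against IFNb. Coding isoforms only gave 0 higher in LPS against Saline and 2 higher in LPS+IFNb against IFNb, with 2, 5 and 2 departures in LPS against Saline, IFNb against Saline and LPS+IFNb against IFNb. Pseudogenes added by name gave 2, 5 and 0 departures there. Added by sequence, they gave 16 lower in LPS against Saline, 3 lower in LPS+IFNb against IFNb, and 2, 5 and 4 departures in LPS against Saline, IFNb against Saline and LPS+IFNb against LPS.

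Leaving out a library gave 3 to 12 lower and 0 to 3 higher in LPS against Saline, 35 to 61 lower in IFNb against Saline, 21 to 60 lower in LPS+IFNb against LPS, 0 to 9 lower in LPS+IFNb against IFNb, 7 to 30 higher in LPS against IFNb and 0 to 2 lower in the interaction. Departures were 1 to 5, 0 to 5, 4 to 10, 0 to 7, 0 to 1 and 0 to 6 in LPS and IFNb against Saline, LPS+IFNb against Saline, LPS and IFNb, and LPS against IFNb. The group left with 1 library was assumed to vary like the others.

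The replicate numbers showed no pairing common to all groups: correlations of replicate differences lay between -0.156 and 0.141 over all genes and between -0.669 and 0.284 over the members. Over all genes they were positive for Saline with LPS (0.141) and IFNb with LPS+IFNb (0.126), 0.0053 for Saline with LPS+IFNb, and negative for the other pairs. Pairs under swapped numbers were not tested, and a block by replicate number cannot capture them. With the replicate block the counts were 6 lower in LPS against Saline and 19 higher in LPS against IFNb, with 1, 3, 0 and 3 departures in IFNb against Saline, LPS+IFNb against LPS, LPS+IFNb against IFNb and LPS against IFNb.

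Median-ratio scaling reversed the LPS changes of Rpl30 (0.0247) and Rpl39 (0.0691). Coding isoforms only reversed Rpl12 in LPS+IFNb against LPS (0.14) and in LPS against IFNb (-0.34), and Rps20 relative to the family in LPS+IFNb against Saline (-0.0246). The cause was not tested. Of 631 values for 41 results on single members under alternatives, 456 kept the call, 170 lost it with the same direction and 5 reversed. TPM gives no depth, so low members such as Rpl12, Rpl5 and Rpl13a are imprecise by an unknown amount.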
